A study of Mus musculus with 4 samples.

Results

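Bone marrow stroma and endothelium were compared between the day 40 and the day 19 graft of a human lymphoma in mice, with 1 single-cell RNA library on each side. Cells were taken with 500 or more detected genes, 1000 or more unique molecular identifiers (UMIs, each standing for 1 captured RNA molecule) and at most 10% mitochondrial UMIs. Stroma was the set of these cells with no UMI of the endothelial cadherin gene Cdh5 and with Cxcl12 at 20, Col1a2 at 10 or Col2a1 at 20 UMIs per 10000 or more. Endothelium was the set with 1 or more Cdh5 UMIs and with Col1a2 and Cxcl12 together under 20 per 10000. These rules took 2878 stromal and 1188 endothelial cells from Graft_D40 and 3038 and 1248 from Graft_D19. Together they are 8352 of the 9822 cells that passed the filters in the graft libraries and of 18543 in the whole series. The other 854 cells of Graft_D40 and 616 of Graft_D19 fell in neither class.

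Both grafts were made in femurs of C57BL/6 mice of the genotype Rag2-/-gammac-/-, which lack lymphocytes of their own. Cells of DOHH2, a human B-cell line established from a follicular lymphoma, were injected into the femur, and marrow was taken at day 19 (Graft_D19, labelled early) or day 40 (Graft_D40, labelled late). Beside them stand Sham_D40, with a saline injection and harvest at day 40, and Ctrl, which received no graft, both in mice of the same genotype. Stroma had been sorted as Cd51+ Cd200+ cells and endothelium as Cd31+ Sca1+ cells, all without Cd45 and Ter119. Sca1 is the protein of Ly6a, so the sort itself selects on a gene of arterial and capillary endothelium. The sources used here do not give how many animals went into a library. With 1 library per group no test was possible, every interval covers counting error only, and day, animal and library cannot be told apart.

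Perivascular stromal cells marked by the leptin receptor are the main source of Cxcl12 and Kitl, the chemokine and the growth factor that hold blood stem cells in the marrow. Lymphoma cells that settle in marrow meet these cells, together with bone-forming and cartilage cells and a vessel network made mostly of fenestrated sinusoids fed by arterioles and capillaries. Fibroblastic cells that take up a myofibroblast state make smooth muscle actin and contractile proteins, and stromal cells of lymphoid organs attract B cells with Cxcl13.

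The libraries held 72204599 gene UMIs in Graft_D40, 63214301 at day 19, 51744386 in Sham_D40 and 18533482 in Ctrl, which makes Ctrl the shallowest. The cells of a class were summed and scaled by the total UMIs of that class to CPM, the usual unit of such sums. The stromal sums held 45736644 and 39287467 UMIs at day 40 and day 19, and the endothelial sums 13366190 and 13353633, so 3 counts correspond to 0.0656, 0.0764, 0.224 and 0.225 CPM. The graft libraries shared 12 cell barcodes, of which 5 were kept in both. All 18 genes of the endothelial identity list were measured in endothelium, where they summed to 10910 CPM at day 40 and 13150 at day 19, against 102 and 98.3 CPM in stroma. All 16 genes of the leptin receptor (LepR) stroma list were measured in stroma. Cdh5 is in the identity list and Cxcl12 in the LepR list, and the class rules used both genes. The rules therefore set a part of these values.

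The makeup of both classes differed between the days. Of the stromal cells, 50.2% (48.4 to 52.1, Clopper-Pearson interval at 95%) entered through the Cxcl12 rule with Col2a1 under 20 per 10000 at day 40, against 65.1% (63.4 to 66.8) at day 19. The share in the ungrafted libraries was 75.1% in Sham_D40 and 83.3% in Ctrl. Cells with Col2a1 at 20 or more, the gene of cartilage collagen, were 30.5% (28.8 to 32.2) at day 40 and 23.2% (21.7 to 24.8) at day 19. Those admitted by Col1a2 alone, the gene of a chain of type I collagen, were 19.3% (17.9 to 20.8) and 11.7% (10.6 to 12.9). These 3 exclusive groups are called the Cxcl12, Col2a1 and Col1a2 arms below. They are ranges of the gate genes and not cell types, and the levels of Cxcl12, Col1a2, Col2a1 and Cdh5 are therefore description only. The part of these genes in the counts, medians and sums of the gene lists below is likewise description.

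The share of cells near the gates differed between the days. In Graft_D40 115 stromal cells (4.0%) lay within 1.5 times of the gates, with a median Col1a2 of 10.0 per 10000, and 76 left-out cells lay as close below, with a median of 7.24. The numbers in Graft_D19 were 54 (1.78%, median 10.3) and 55 (median 6.74). Endothelium admitted by a single Cdh5 UMI was 11.8% at day 40 and 6.65% at day 19. Col1a2 and Cxcl12 together lay between 10 and 20 per 10000 in 207 of 1188 endothelial cells at day 40 and in 121 of 1248 at day 19, more often at day 40. Of the Cdh5 cells left out of the endothelium, 94 and 62 had Col1a2 and Cxcl12 together between 20 and 30 per 10000.

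Endothelium differed more than stroma. A cell was put on the sinusoidal side when the UMIs of Stab2, Stab1 and Flt4 exceeded those of Ly6a, Ly6c1, Sox17 and Gja4, and on the arterial and capillary side in the reverse case. The sinusoidal side was 24.2% (21.8 to 26.8) of endothelium at day 40 and 66.5% (63.8 to 69.1) at day 19, beside 68.2% in Sham_D40 and 73.6% in Ctrl. The arterial and capillary side was 69.6% at day 40 and 28.6% at day 19. With Ly6a, the gene of the sorted protein, left out of the rule, the sinusoidal shares were 37.3% and 76.4%. After each cell was thinned to 2000 UMIs, which left out 27 and 34 shallower cells, they were 22.6% and 61.3%. Day 40 thus stood below day 19 under each of these 3 ways of calling the sides. Whether the Cd31+ Sca1+ sort took the same fractions of marrow on both days was not tested.

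**Figure D1:**
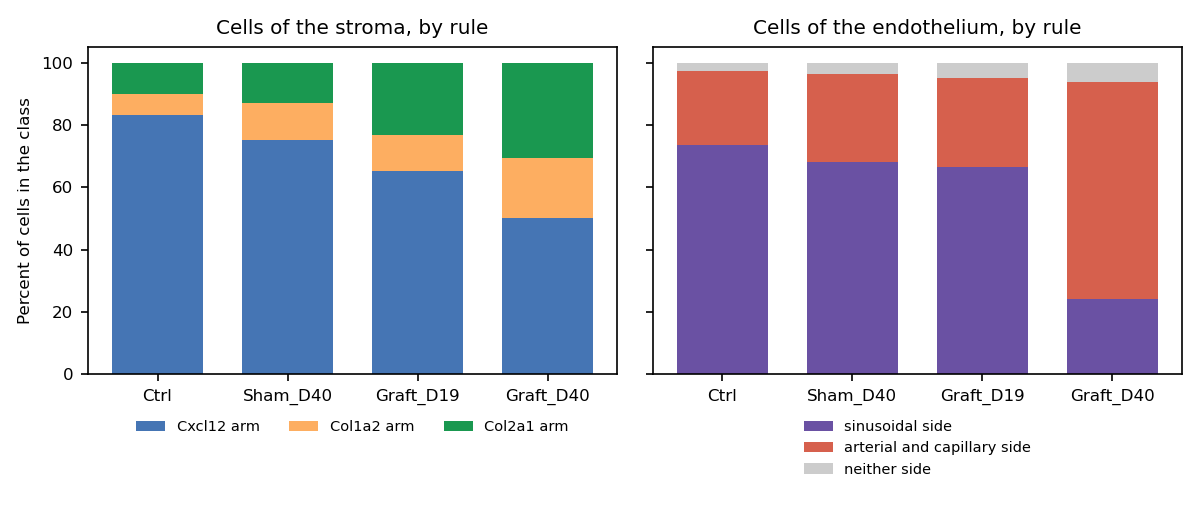
Shares of cells (percent, y axis) in the 3 stromal arms and the endothelial sides for Ctrl, Sham_D40, Graft_D19 and Graft_D40 (x axis), as stacked bars from 0. In Graft_D40 the Cxcl12 arm is 50.2% of stroma and the sinusoidal side 24.2% of endothelium, each the lowest share of the 4 libraries.

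A sum over a class mixes how many cells of each kind it holds with how much RNA each of them has. Ratios over all stroma or all endothelium were therefore also computed at the same makeup, with the arms or sides weighted alike in both libraries. Ratios within an arm or side have no such value. Genes counted as measured if the mean of the graft libraries reached 10 CPM, and a ratio of at least 1.5-fold in either direction counted as higher or lower. Log2 ratios were taken after 1 CPM was added to each value. In stroma 127 of 8924 genes (1.42%) were higher at day 40 and 232 (2.6%) lower. At the same makeup the split was 154 higher (1.73%) and 165 lower (1.85%). In endothelium 487 of 9075 genes (5.37%) were higher and 405 (4.46%) lower, and at the same makeup 226 (2.49%) and 163 (1.8%). The median log2 ratio over all measured genes was -0.02 in stroma and -0.03 in endothelium.

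**Figure D2:**
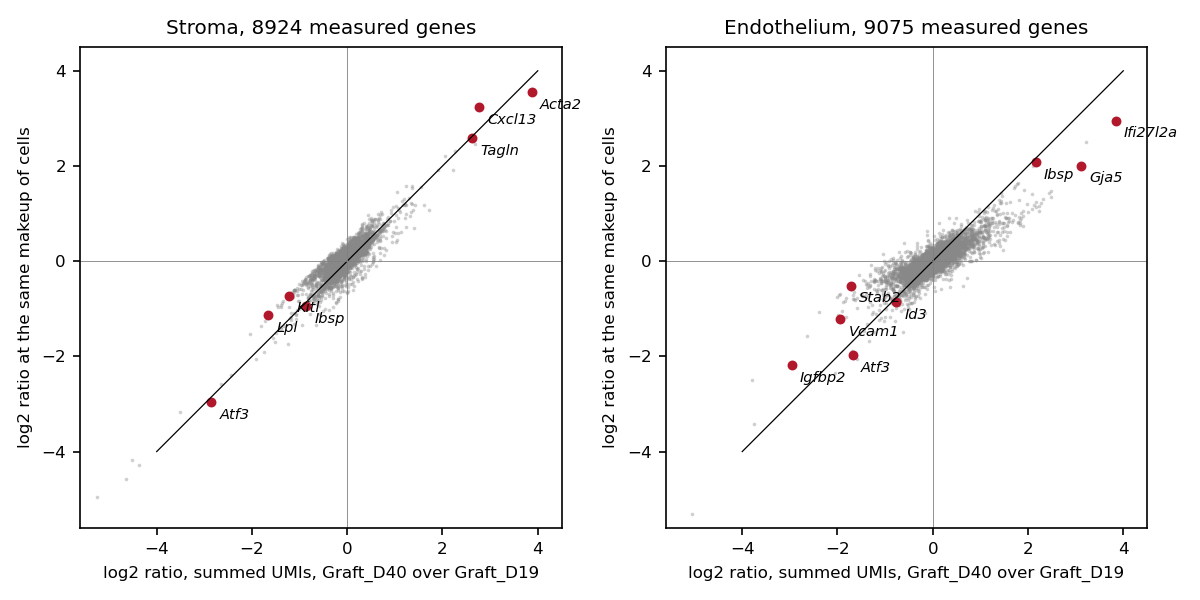
Each point is a measured gene of stroma (8924) or endothelium (9075), with its log2 ratio of Graft_D40 over Graft_D19 on the x axis and the ratio at the same makeup on the y axis. Endothelial points lie flatter than the diagonal, and the calls there fall from 487 to 226 higher and from 405 to 163 lower.

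Among the stromal genes ranked by ratio for naming, contractile genes held ranks 1, 4 and 7 of those higher at day 40. Acta2 (chr19:34241090-34255590), which encodes smooth muscle actin, stood at 181 CPM at day 40, 11.5 at day 19, 20.3 in Sham_D40 and 35.6 in Ctrl. It was therefore higher in Graft_D40 than in each of the other 3 libraries, and 15.8-fold (14.4 to 17.4) above Graft_D19 (log2 3.87, and 3.55 at the same makeup). Tagln, the actin-binding transgelin of smooth muscle, was at 125, 19.6, 16.4 and 37.7 CPM in the same order, a log2 ratio of 2.61 between the grafts. Csrp2, a LIM protein of smooth muscle, was at 77.2 against 25.9 CPM (log2 1.54). Of 18 measured members of the contractile and myofibroblast list 6 were higher and 0 lower (median log2 ratio 0.40, short of 1.5-fold). At the same makeup 9 were higher and 0 lower (median 0.52, also short of it). Myh9, the heavy chain of nonmuscle myosin, was at 200.1 and 194 CPM and was not among them.

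UMIs of these genes lay in a minority of cells. Acta2 had a UMI in 408 of the stromal cells of Graft_D40 (14.2%) and in 99 of Graft_D19 (3.26%), and after thinning in 6.63% (5.73 to 7.63) and 1.25% (0.875 to 1.74). In the Col2a1 arm, cartilage-marked cells with higher median depth (25188 and 25150 UMIs, against 10780.5 and 8411.5 over all stroma), the unthinned shares were 9.45% and 1.56% and the thinned ones 1.61% and 0. In endothelium (median depths 8560.0 and 9099 UMIs) an Acta2 UMI was found in 7.41% and 1.84% of cells, and after thinning in 2.58% and 0.906%. After thinning, the stromal share stood above the endothelial one at day 40, and at day 19 their intervals overlapped (0.453 to 1.61 in endothelium). The Col2a1 arm at day 40 stood below the endothelial share, and whether its Acta2 is background was not tested. The 10 richest cells held 36.1% of the Acta2 UMIs at day 40 and 65.8% at day 19, and without them Acta2 stood at 118 and 3.93 CPM. Tagln had a UMI in 512 and 203 stromal cells, 8.32% and 3.12% after thinning, beside 6.63% and 2.14% of thinned endothelial cells. Acta2 was at 92.0 against 15.5 CPM in the Cxcl12 arm, and 580.2 against 33.7 in the Col1a2 arm, so the day 40 value was the higher one in both. In the pericyte and smooth muscle list, of which Acta2 and Tagln are also members, 3 of 7 measured genes were higher and 0 lower. The summed level of that list, with Acta2 and Tagln in it, was 729.8 CPM at day 40 and 374.5 at day 19, and the part of pericytes in the Acta2 values was not tested.

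Niche factors and the LepR program went the other way. Kitl, the stem cell factor that binds the receptor Kit, stood at 310.1 CPM at day 40, 730.5 at day 19, 1588 in Sham_D40 and 1628 in Ctrl. Graft_D40 was the lowest of the 4, 2.36-fold (2.31 to 2.40) below Graft_D19, with a log2 ratio of -1.23 that was -0.72 at the same makeup. Of 20 measured niche factors 10 were lower and 2 higher (median -0.61), and at the same makeup 3 and 2 (median -0.27). With each cell weighted equally the median was -0.42 for the niche list, short of 1.5-fold. Angpt1, a ligand of the receptor Tek on endothelium, was at 50.5 against 112 CPM. Bmp4, a secreted factor of the BMP family, stood at 44.4 and 159 CPM. The LepR stroma list, which shares Cxcl12, Kitl, Vcam1, Gas6 and Il7 with the niche list, had 10 of 16 lower and 0 higher (median -0.71), which at the same makeup became 3 and 0 (median -0.23) and with each cell weighted equally had a median of -0.53.

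Within the Cxcl12 arm alone, where Cxcl12 chose the cells, part of this difference was still present. Kitl was at 1052 CPM at day 40 and 1776 at day 19 there, beside 2639 in Sham_D40 and 2034 in Ctrl. A Kitl UMI was found in 95.02% and 97.2% of the cells of the arm in the grafts, and after thinning in 78.7% (76.4 to 80.8) and 89.3% (87.8 to 90.6), so the lower level was spread over the cells. Lpl, the lipoprotein lipase of adipogenic stroma, was at 1405 against 3220 CPM, and Adipoq, the adipokine adiponectin, at 1027 against 1963. Lepr itself, the leptin receptor, was at 1957 and 2123 CPM, a log2 ratio of -0.12 that did not reach 1.5-fold. In the arm as a whole 218 of 9129 genes (2.39%) were higher and 128 (1.4%) lower. Of the LepR stroma list 3 of 16 were lower and 0 higher there (median -0.32), and of the niche factors 4 of 20 were lower and 2 higher (median -0.28).

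Matrix genes differed between the arms. Of the matricellular proteins and glycoproteins 6 of 27 were higher and 1 lower in the Cxcl12 arm, 12 of 32 and 4 in the Col1a2 arm, and 1 of 23 and 5 in the Col2a1 arm. Over all measured genes 9.09% were higher and 3.75% lower in the Col1a2 arm, and 2.23% and 3.52% in the Col2a1 arm. Col8a1, the short-chain collagen of the vessel wall and of Descemet's membrane, was at 552.5 CPM at day 40, 267 at day 19, 242 in Sham_D40 and 221 in Ctrl (log2 1.05, and 1.45 at the same makeup). In the Cxcl12 arm it was at 1576, 621, 378 and 268 CPM, and 77.4% (75.1 to 79.6) of thinned cells had a UMI at day 40 against 53.3% (51.03 to 55.6) at day 19. Both grafts thus stood above both ungrafted libraries there, and day 40 above day 19. Of the other interstitial collagens, 5 of 11 were higher and 1 lower in that arm (median 0.56), whereas in all stroma 2 of 13 were higher and 2 lower (median 0.03). Col6a5, a chain of the type VI collagens, was the lower one, at 133 against 389 CPM in the arm. Col3a1, a fibrillar collagen of soft tissue, was at 1117 CPM in stroma at day 40, 559.9 at day 19, 965 in Sham_D40 and 199 in Ctrl. It was the 1 fibrillar collagen of 10 past 1.5-fold, and Col1a1, the other chain of type I collagen, was at 14637 and 13188 CPM. The median of the fibrillar collagens was 0.09 in stroma and -0.25 at the same makeup. By arm it was 0.29 in the Cxcl12 arm, -0.41 in the Col1a2 arm and -0.44 in the Col2a1 arm. None of the 24 measured genes of the TGF-beta pathway list passed 1.5-fold in stroma, whereas at the same makeup 3 were higher and 0 lower. In the Cxcl12 arm 5 of 24 were higher and 0 lower, in the Col1a2 arm 6 of 24 and 0, and in the Col2a1 arm 0 of 21 and 2.

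Among secreted and surface genes linked with fibroblast activation, Lgals1, the beta-galactoside-binding galectin, was at 919.9 against 369 CPM (log2 1.31). S100a6, a calcium-binding protein, was at 1792 against 769 CPM, and had a UMI in 62.8% of thinned stromal cells at day 40 against 43.0% at day 19. Ly6a was at 168 against 54.3 CPM in stroma, and was higher in the Cxcl12 arm (85.3 against 16.8) as well as in the Col1a2 arm (399.7 against 216). Of the activated fibroblast list 5 of 18 were higher and 0 lower. Fap, the fibroblast activation protein, was at 274 and 251 CPM, and Pdgfra, a platelet-derived growth factor receptor, at 141.5 and 170.2, neither past 1.5-fold. Mgp, an inhibitor of calcification outside the activated fibroblast list, was at 33866 CPM at day 40, 15868 at day 19, 15871 in Sham_D40 and 8634 in Ctrl. The arterial and capillary list, of which Mgp is a member, summed to 66040 against 31570 CPM in the Col2a1 arm. That list summed to 12560 against 7592 CPM in the Cxcl12 arm and to 4123 against 3812 in the Col1a2 arm.

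Chemokines were mixed. Cxcl13, the B-cell attractant, was at 77.9 CPM at day 40, 10.6 at day 19, 6.35 in Sham_D40 and 23.1 in Ctrl, a log2 ratio between the grafts of 2.76 (3.23 at the same makeup). In the Cxcl12 arm, which held 3146 of its 3562 UMIs at day 40, it was at 252, 25.9, 10.6 and 28.8 CPM. It was found in 171 and 64 stromal cells of the grafts, or 2.93% (2.33 to 3.64) and 0.681% (0.411 to 1.06) after thinning. In endothelium 8 and 1 cells had a Cxcl13 UMI and 0 after thinning. The 10 richest cells held 56.6% of the Cxcl13 UMIs at day 40 and 71.9% at day 19, and without them it stood at 33.9 and 2.99 CPM. Ccl7, a monocyte attractant, was at 25.7 against 4.71 CPM, and Cxcl10, an interferon-induced chemokine, at 32.7 against 7.13. Of 17 measured cytokines and chemokines 5 were higher and 2 lower (median -0.14), and at the same makeup 7 and 0 with a median of the other sign (0.15). Within the Cxcl12 arm 9 of 18 were higher and 2 lower (median 0.41). Neutrophil genes moved the other way in that arm, summing to 24.0 CPM at day 40, 1099 at day 19, 34.8 in Sham_D40 and 528 in Ctrl, and their part in the chemokine values was not tested.

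**Figure D3:**
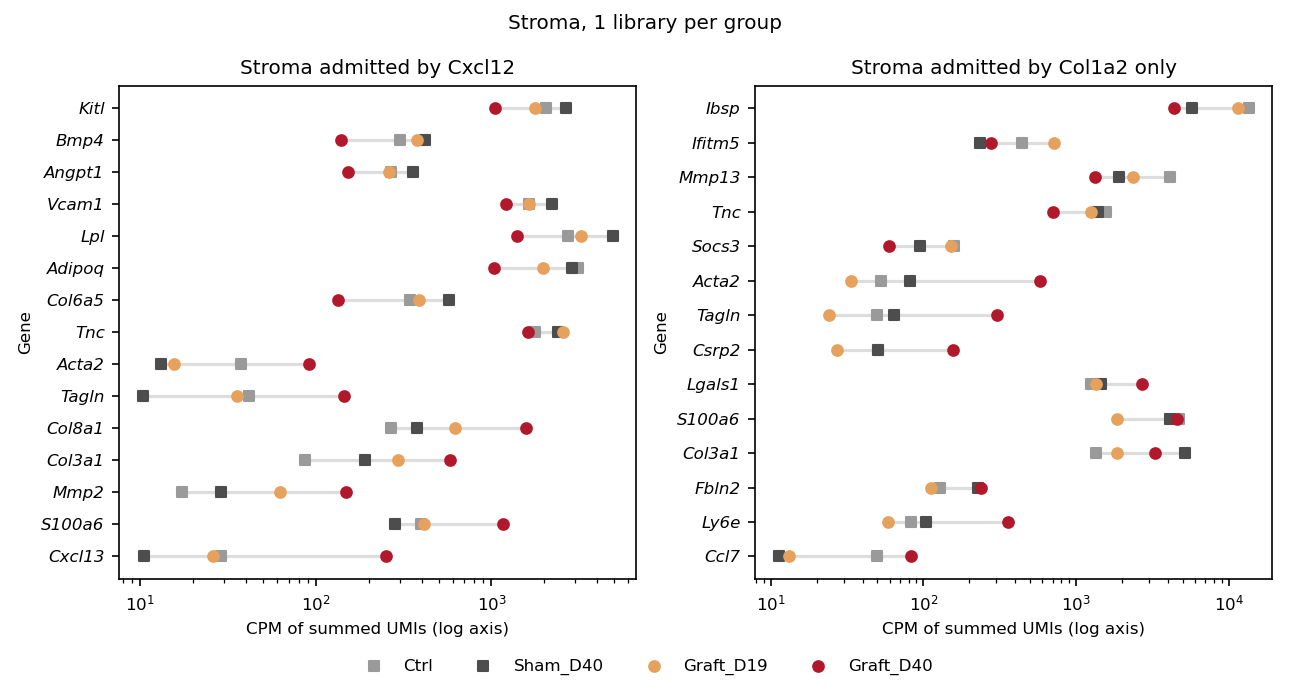
CPM (log axis) of named genes in the Cxcl12 arm and the Col1a2 arm, with 1 point for each of the 4 libraries. Cxcl13 and Col8a1 are highest in Graft_D40 in the Cxcl12 arm, whereas Kitl, Lpl and Adipoq are lowest there.

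A part of the interferon-stimulated genes was higher in the stroma of Graft_D40, and most of those measured in the Col1a2 arm. In all stroma 6 of 32 were higher and 0 lower (median 0.22), and at the same makeup 13 and 0 (median 0.48). Their summed level was 2759 CPM at day 40, 2359 at day 19, 3265 in Sham_D40 and 5531 in Ctrl. Both grafts lay below both ungrafted libraries in this sum, which was not taken at the same makeup. In the Cxcl12 arm the sums were 6025, 5024, 4933 and 6628 CPM in the same order. Both grafts thus lay above Sham_D40 and below Ctrl there. In that arm 7 of 35 interferon-stimulated genes were higher and 0 lower, and in the Col2a1 arm 1 of 10 was higher and 2 lower. Ifi27l2a, a small mitochondrial protein induced by interferon, was at 68.7 CPM at day 40, 9.88 at day 19, 15.2 in Sham_D40 and 24.4 in Ctrl. Rsad2, the antiviral enzyme viperin, was at 24.4 against 4.30 CPM. Ifit3, an RNA-binding antiviral protein, was at 39.6 against 19.9 CPM, and Irf7, a transcription factor of the interferon response, at 44.7 against 26.9. In Ctrl the last 3 were at 13.96, 37.3 and 66.2 CPM, so Graft_D40 stood above the shallow ungrafted library for Rsad2 and Ifit3 but below it for Irf7.

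The promoters of 4 interferon-induced genes that hold an interferon motif are shown as examples. They are from RefSeq on GRCm38.p6, each up to the base before the annotated start. Capitals mark the interferon-stimulated response element, searched on both strands as GAAA, any 2 bases and GAAA again, which reads TTTC, 2 bases and TTTC when it lies on the other strand.
Rsad2 chr12:26456453-26456582 (reverse strand): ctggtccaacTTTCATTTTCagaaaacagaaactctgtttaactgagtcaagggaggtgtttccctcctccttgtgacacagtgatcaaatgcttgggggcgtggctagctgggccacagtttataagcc
Ifit3 chr19:34583363-34583528 (forward strand): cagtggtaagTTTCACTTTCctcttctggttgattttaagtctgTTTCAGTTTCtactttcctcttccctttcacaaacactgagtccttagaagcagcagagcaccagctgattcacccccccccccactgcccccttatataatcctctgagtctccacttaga
Ifit1 chr19:34640769-34640888 (forward strand): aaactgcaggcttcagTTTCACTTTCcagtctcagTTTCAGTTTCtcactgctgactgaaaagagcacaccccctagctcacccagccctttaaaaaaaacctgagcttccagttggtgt
Cxcl10 chr5:92348890-92349112 (reverse strand): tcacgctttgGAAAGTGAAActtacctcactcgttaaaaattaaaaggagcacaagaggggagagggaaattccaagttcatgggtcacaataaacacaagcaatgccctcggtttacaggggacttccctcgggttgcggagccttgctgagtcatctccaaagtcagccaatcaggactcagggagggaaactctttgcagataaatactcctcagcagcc
The match begins 120 bases before the start in Rsad2, 156 and 122 in Ifit3, 104 and 85 in Ifit1 and 213 in Cxcl10. Of the 31 interferon-stimulated genes with a promoter sequence, higher at day 40 or not, 16 held a match in the 250 bases before a start. The window of Irf7 held none. In all 978 of 32851 windows of that length (2.98%) held one. That share is by window, whereas the list count is by gene, and some genes have several windows. A match describes the letters and does not show binding.

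The Col1a2 arm, whose osteoblast and mineralisation genes summed to 42180 and 50480 CPM, had the largest share of genes past 1.5-fold among the 3 arms, 751 of 8261 higher (9.09%) and 310 lower (3.75%). There 30 of 33 interferon-stimulated genes were higher and 0 lower, with a median log2 ratio of 2.27. Their summed level was 3560 CPM at day 40, 1020 at day 19, 1426 in Sham_D40 and 2036 in Ctrl. Isg15, a ubiquitin-like antiviral protein, was at 243 against 17.6 CPM. Rsad2 was at 67.0 CPM on 786 UMIs at day 40 and 0.523 on 3 UMIs at day 19, a ratio of 128 (43.7 to 622). The 10 richest cells held 95.2% of those Rsad2 UMIs, 97.8% of the Cxcl10 UMIs and 76.4% of the Ifit3 UMIs of Graft_D40, so each of these genes rested on few cells. The list median did not rest on them. Per cell the interferon-stimulated genes had a median of 24.6 UMIs per 10000 at day 40 and 8.76 at day 19, and without the 10 richest cells of each gene 31 of 33 were higher (median 2.11).

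Cell cycle, contractile and antigen presentation genes were higher in the same arm. Of 27 cell cycle genes 25 were higher and 0 lower (median 1.93), and the list summed to 1781 CPM at day 40, 573 at day 19, 611 in Sham_D40 and 1370 in Ctrl. Top2a, the topoisomerase of dividing cells, was at 78.3 against 4.53 CPM, with a UMI in 39 of 555 and 16 of 355 cells. The cell cycle median per cell was 4.36 UMIs per 10000 at day 40 and 3.61 at day 19, so most of that difference lay in a minority of cells. Of 19 contractile genes 15 were higher and 0 lower (median 1.07), with a median per cell of 52.8 against 36.6 UMIs per 10000 for contractile and myofibroblast genes. Of 16 antigen presentation genes 13 were higher and 0 lower (median 0.83). Cytokines and chemokines had 10 of 16 higher and 0 lower in this arm (median 1.08), and niche factors 7 of 17 higher and 2 lower (median 0.52), the opposite sign to the Cxcl12 arm. H2-K1, a heavy chain of class I histocompatibility molecules, was at 748 against 382.5 CPM.

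Bone-forming genes were lower there. Of 24 osteoblast and mineralisation genes 13 were lower and 2 higher (median -0.65), and the median per cell was 80.8 against 222 UMIs per 10000. Ibsp, the bone sialoprotein, was at 4341 CPM at day 40, 11377 at day 19, 5726 in Sham_D40 and 13413 in Ctrl. Bglap, which encodes osteocalcin and shares reads with near-identical copies, was at 14970.0 and 13069 CPM, not past 1.5-fold. The Col1a2 arm thus held a smaller share of osteoblast transcripts at day 40, and whether the interferon and contractile values go with that makeup within the arm was not tested. With Col1a2 at 15 per 10000 or more, so without the 9.01% and 7.61% of cells nearest the gate, the interferon median was 2.20, the cell cycle median 1.94 and the contractile median 1.09.

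Immediate early genes, which are transcribed within minutes of a stimulus, were lower at day 40 in the sum over stroma. Atf3, a stress-induced transcription factor, was at 19.6 CPM at day 40, 147 at day 19, 41.5 in Sham_D40 and 39.2 in Ctrl, so Graft_D19 was the highest and Graft_D40 the lowest. Fos was at 869.5, 1826, 1079 and 771 CPM in that order, with Graft_D40 between the ungrafted libraries. Of 33 measured members of the immediate early and stress list 17 were lower and 0 higher (median -0.61), and at the same makeup 18 and 0 (median -0.68). The median was -0.23 with each cell weighted equally and -0.33 without the Col2a1 arm, both short of 1.5-fold. The median was lowest in the Col2a1 arm, where 24 of 32 were lower and 0 higher (median -0.83), against 281 of 7989 genes (3.52%) lower, and Atf3 was at 31.9 against 299 CPM. In the Col1a2 arm 17 of 32 were lower and 2 higher (median -0.77). The difference in the sums was smallest in the Cxcl12 arm, with 4 of 27 lower and 1 higher (median -0.17). Per cell the direction there was the other one. The median per cell of the immediate early and stress list was higher at day 40, at 31.2 UMIs per 10000 against 25.4 at day 19. The median mitochondrial share of kept cells was 2.54% and 2.66% in the grafts. The sources used here do not give the time from harvest to lysis.

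In the Col2a1 arm, the cartilage-marked cells, 178 genes (2.23%) were higher. Cell cycle genes were lower here, 23 of 33 with 0 higher (median -1.21), the opposite sign to the Col1a2 arm. Mki67, a marker of dividing cells, was at 41.7 CPM at day 40 and 101 at day 19, beside 67.6 in Sham_D40 and 36.3 in Ctrl. The histone gene Hist1h2ap was at 80.0, 423, 15.4 and 308 CPM. Of 21 chondrocyte genes 4 were lower and 0 higher (median -0.03), against 3.52% of all measured genes lower in the arm. The list summed to 84230 CPM at day 40 and 100100 at day 19, with Col2a1, which chose the cells, among its members. Sox9, the master regulator of cartilage, was at 1473 and 1427 CPM. Of 9 fibrillar collagens 4 were lower and 0 higher (median -0.44). Prg4, the joint lubricant lubricin, was at 1301 against 3944 CPM.

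**Figure D4:**
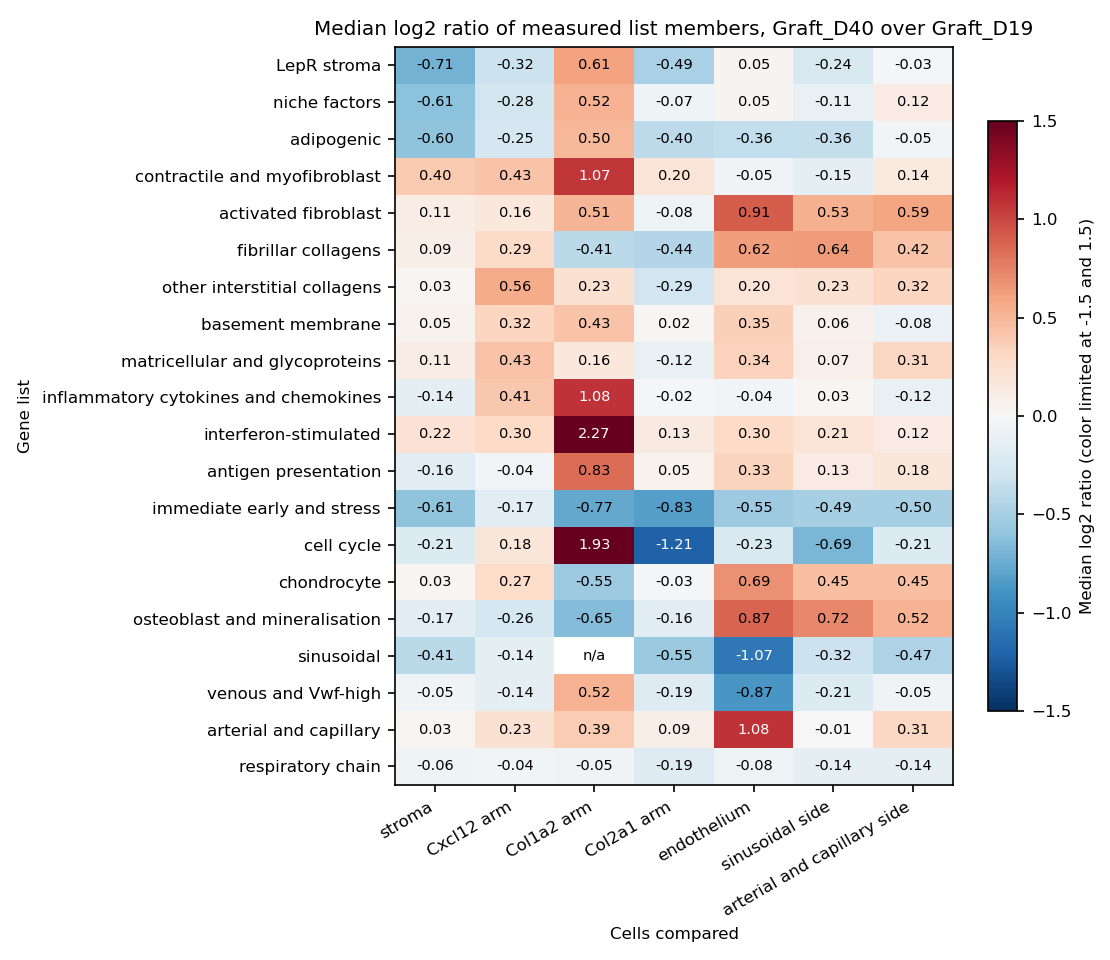
Median log2 ratio of Graft_D40 over Graft_D19 (colour) for 20 gene lists (rows) in stroma, its 3 arms, endothelium and its sides (columns). Interferon-stimulated and cell cycle genes stand out in the Col1a2 arm at 2.27 and 1.93, cell cycle genes in the Col2a1 arm at -1.21, and sinusoidal and arterial genes in endothelium at -1.07 and 1.08.

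Endothelial sums followed the sides. Of 17 measured sinusoidal genes 15 were lower and 0 higher (median -1.07), and at the same makeup 3 and 0 (median -0.34). Of 20 arterial and capillary genes 12 were higher and 0 lower (median 1.08), and at the same makeup 5 and 0 (median 0.23). Stab2, Stab1, Flt4, Ly6a, Ly6c1, Sox17 and Gja4 defined the sides and belong to these lists, so their part in these counts is description. Because the sides were called from these genes, the rule also sets a part of the fall of both lists at the same makeup. Stab2, the hyaluronan receptor of sinusoids, was at 235 CPM at day 40, 775 at day 19, 1150 in Sham_D40 and 1250 in Ctrl. Mrc1, the mannose receptor, was at 289.8 against 800.4 CPM and within the sinusoidal side at 904 against 1130, a log2 ratio of -0.32. Scavenger and lysosomal genes had 6 of 20 lower and 0 higher in endothelium. Mgp, which stroma also expresses, is a member of the arterial and capillary list.

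Some endothelial differences were present within a side. Vcam1, the adhesion molecule that binds integrins of leukocytes, was at 88.9 CPM at day 40, 345 at day 19, 655 in Sham_D40 and 486 in Ctrl. On the sinusoidal side it was at 172 against 483 CPM, and Sele, the selectin of activated endothelium, at 129 against 249. Igfbp2, an insulin-like growth factor binding protein, was at 6.29 CPM at day 40, 55.8 at day 19, 45.4 in Sham_D40 and 88.5 in Ctrl, with a UMI in 50 and 289 endothelial cells of the grafts. Thinned shares for Igfbp2 were 1.29% (0.725 to 2.12) and 9.14% (7.58 to 10.9), and in stroma 0.110% and 0.430%. It was lower on both sides, at 19.2 against 70.3 CPM and at 3.41 against 36.3. In the sinusoidal side as a whole 317 of 8943 genes (3.54%) were higher and 284 (3.18%) lower, and of the sinusoidal list 3 of 17 were lower and 1 higher.

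On the arterial and capillary side 353 of 9044 genes (3.9%) were higher and 231 (2.55%) lower. Gja5, the connexin of arterial endothelium, was at 52.2 CPM there at day 40, 11.3 at day 19, 43.3 in Sham_D40 and 52.4 in Ctrl, so Graft_D19 was the low library. It was found in 70 of 827 cells of that side at day 40 and in 15 of 357 at day 19. Without the 10 richest cells it stood at 24.6 and 1.36 CPM. Ifi27l2a was at 266 CPM at day 40, 28.7 at day 19, 118 in Sham_D40 and 122 in Ctrl, and 18.5% against 4.27% of thinned cells of the side had a UMI. On the sinusoidal side it was at 10.7 and 6.51 CPM, on 29 and 56 UMIs. Cav1, the coat protein of caveolae, was at 617 against 358 CPM on the arterial and capillary side and Vim, the intermediate filament vimentin, at 3769 against 2334. Of the arterial and capillary list 8 of 23 were higher and 1 lower there (median 0.31).

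**Figure D5:**
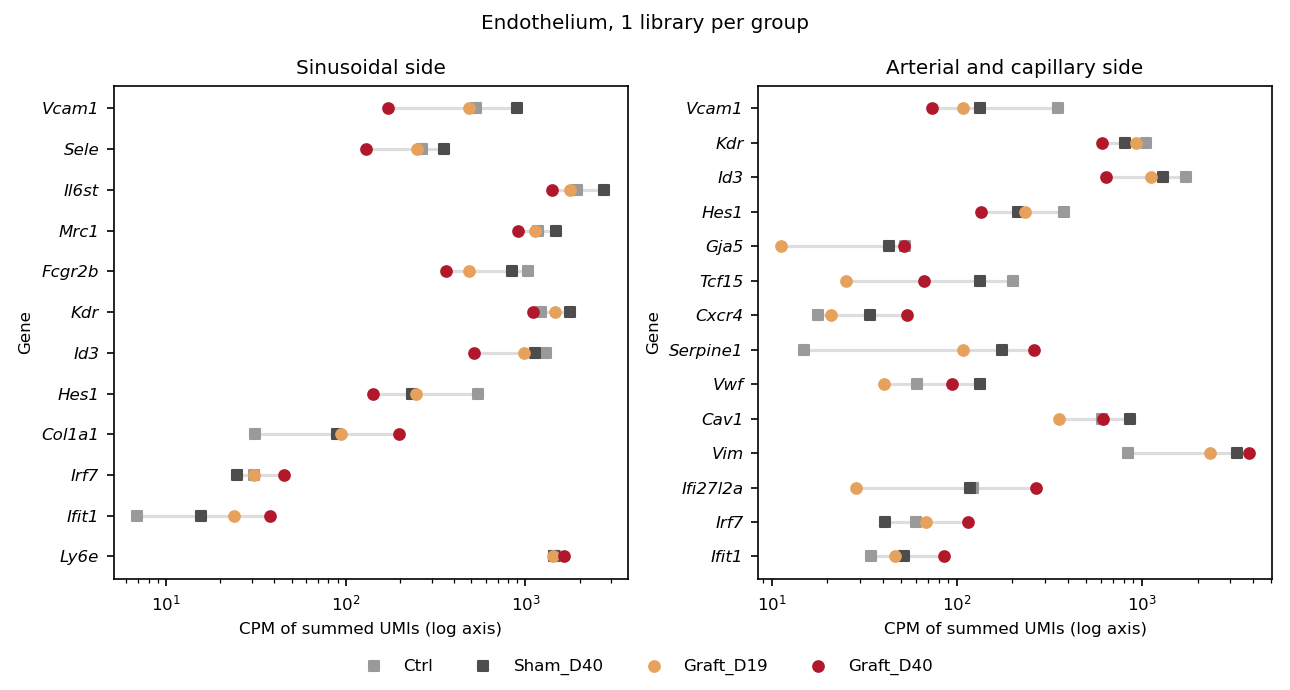
CPM (log axis) of named genes on the sinusoidal side and on the arterial and capillary side, with 1 point for each of the 4 libraries. Vcam1 and Sele are lowest in Graft_D40 on the sinusoidal side, and Ifi27l2a is highest in Graft_D40 on the arterial and capillary side.

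Immediate early genes were lower in endothelium as in stroma. Of 32 measured members 15 were lower and 0 higher (median -0.55), with the same counts at the same makeup (median -0.57). They were lower on the sinusoidal side, 13 of 31 with 0 higher, and on the arterial and capillary side, 11 of 31 with 0 higher. Fos was at 536 CPM at day 40, 1062 at day 19, 1137 in Sham_D40 and 1611 in Ctrl. Id3, a target of bone morphogenetic protein signalling, was at 572 CPM at day 40, 979.8 at day 19, 1138 in Sham_D40 and 1361 in Ctrl, and was lower on the sinusoidal side (515 against 978) and on the arterial and capillary side (643 against 1123). Kdr, the main receptor of vascular endothelial growth factor, was at 657 against 1223 CPM, with a log2 ratio of -0.90 that was -0.50 at the same makeup. Interferon-stimulated genes had 13 of 38 higher and 0 lower (median 0.30), and 3 and 0 at the same makeup. Ifit1, an RNA-binding antiviral protein, was at 68.4, 29.4, 23.8 and 12.1 CPM from Graft_D40 to Ctrl, with both grafts above both ungrafted libraries. Cell cycle genes had 2 of 32 higher and 2 lower (median -0.23), and at the same makeup 0 and 14 (median -0.49).

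Transcripts of cartilage and bone, which endothelium should lack, were higher in the endothelium of Graft_D40. Of 20 chondrocyte genes 13 were higher and 0 lower (median 0.69), and at the same makeup 2 and 0 (median 0.32). The list had a sum of 17960 CPM at day 40, 12080 at day 19, 8546 in Sham_D40 and 2084 in Ctrl. The chondrocyte median per cell was 5.92 UMIs per 10000 at day 40 and 2.98 at day 19, and without the 10 richest cells of each gene 20 of 20 were higher (median 1.02) with the makeup as measured. Of 13 osteoblast and mineralisation genes 8 were higher and 0 lower (median 0.87), and at the same makeup 7 and 0. Ibsp was at 816 against 181 CPM in endothelium, but the 10 richest cells held most of it, and without them it was at 71.4 and 50.3. Fibrillar collagens, with 4 of 8 higher and 0 lower in endothelium, and activated fibroblast genes, with 8 of 11 higher and 0 lower, moved with these cartilage transcripts, whose part in those counts was not tested. At the same makeup 2 fibrillar collagens and 3 activated fibroblast genes were higher and 0 lower. Col1a2, which the endothelial rule used, is a fibrillar collagen gene, so its part in these counts is description.

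The ungrafted libraries give a scale for such differences, since Sham_D40 and Ctrl also differ by library and depth, and by the saline injection and the antibody features that Sham_D40 alone of them has. Graft_D40 holds antibody features as well and Graft_D19 does not, so both pairs set a tagged library over an untagged one. Genes shared by the pairs cannot be told apart from that split. At 1.5-fold, 21.97% of the 8924 measured stromal genes were higher in Sham_D40 than in Ctrl and 8.99% lower, far more than between the grafts. Over all genes measured in the grafts, the median log2 ratio of Sham_D40 over Ctrl was itself 0.21 in stroma and 0.22 in endothelium. Of the 127 stromal genes higher at day 40, 63 (49.6%) were also higher in Sham_D40 over Ctrl, and of the 232 lower 44 (18.97%) were also lower. These 63 genes are 3.21% of those higher in Sham_D40. In endothelium 318 of 487 (65.3%) were higher in both pairs, against 21.7% of all measured genes, and 63 of 405 (15.6%) lower in both, against 8.0%. Acta2, Tagln, Kitl and Atf3 were not among the shared ones in stroma: Sham_D40 and Ctrl were at 1588 and 1628 CPM for Kitl and at 41.5 and 39.2 for Atf3, and for Acta2 and Tagln Sham_D40 was the lower library.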

How the data were processed

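Single-cell RNA libraries (10x Genomics 3' chemistry, per the labels' protocols) were deposited as tables of UMI counts per gene and cell barcode. The deposited counts are raw whole numbers, and Cell Ranger made them. Per the file headers its version was 5.0.0, whereas the submitters' processing notes name 3.1.0 and the build mm10. The libraries' groups came from the sample titles. The members and gene lists were chosen with earlier results of these data known, and genes named only within an arm or side were chosen after their values were seen. In each class, the rule for the other genes named ranked those at 50 CPM or more in the higher library. It took the 10 largest log2 ratios each way and the 5 largest each way at the same makeup. Gate, blood-cell, mitochondrial and ribosomal genes were left out of these rankings. The rule also took the 3 largest ratios of each list at 20 CPM or more, with such genes kept. In stroma Fos, Lepr, Myh9, Fap, Pdgfra and Col1a1, and in endothelium Fos, fall outside it and were chosen after their values were seen.

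From the counts, cells were filtered and classed as in the report, summed per class, and compared as log2 ratios with 1 CPM added. Ratios have exact binomial intervals and shares Clopper-Pearson intervals, both at 95% and for counting error only. Doublets were called with Scrublet and kept, with their removal as an alternative. Ratios over a whole class were also recomputed at the same makeup. The scripts ran in Python 3.11.15 with numpy 2.4.6, scipy 1.17.1, pandas 2.3.3 and scanpy 1.11.5, and were tested on simulated counts. Of 32285 gene IDs 32158 were found in GENCODE vM21 (GRCm38.p6), which gave positions.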

Additional observations from a re-analysis of the deposited data

Results flagged for a closer look

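Antibody-tag features were present in part of the libraries only. The leading feature had over 3 times the UMIs of the other in 100.0% of stromal and 100.0% of endothelial cells of Graft_D40, and in 100.0% and 100.0% of those of Sham_D40, where the other feature led. What the features tag is not stated in the labels, and Ctrl and Graft_D19 hold no such features. The day 40 libraries are thus tagged and the others are not, and this cannot be told apart from the day.

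Some genes differed in opposite directions between day 40 and day 19 in the 2 classes, as log2 ratios in stroma and in endothelium, and the difference between the classes was not tested. Ibsp was at -0.87 in stroma and 2.16 in endothelium. Kitl was at -1.23 and 1.16. Rgs5, a pericyte gene, was at 0.81 and -0.63. Timp4, an inhibitor of matrix proteases, was at -1.73 and 2.43. Vegfc, a growth factor of lymphatic vessels, was at -0.76 and 1.81. These directions were not stable for 4 of the genes. On the sinusoidal side alone the endothelial ratio turned for Kitl (-1.07) and Timp4 (-0.53), and with stricter gates for Ibsp (-1.23). For Rgs5 the endothelial ratio turned with cells weighted equally (0.0566), without doublets (0.061) and without its 10 richest cells (1.72), and the stromal one with stricter gates (-0.33).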

How the results depend on the processing

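No paired analysis was possible because each group is 1 library, and no library could be left out for the same reason. Stromal genes higher at day 40 numbered 127, against 195 with each cell weighted equally, 38 at a minimum of 50 CPM, 348 at 1 CPM, 43 at 2-fold and 318 without the Col2a1 arm. Those lower numbered 232, against 115, 447 and 61 at 50 CPM, 1 CPM and 2-fold. Endothelial genes higher numbered 487, against 174, 1171 and 188 under these 3 settings, 226 at the same makeup and 317 on the sinusoidal side only. Those lower numbered 405, against 202, 742, 122 and, at the same makeup, 163. Signs turned in stroma without the Col2a1 arm for Col9a1 (0.0303), Hist1h2ap (2.00), Hmgb2 (0.36), Matn1 (0.11) and Prg4 (0.32), and with stricter gates for Msmp (1.55) and Rgs5 (-0.33). On the sinusoidal side only they turned for the arterial and capillary list (-0.011), Acta2 (-1.57), Col15a1 (-0.79), Edn1 (-0.30), Eln (-0.0541), Igfbp6 (-0.0788), Itgb4 (-0.0357), Kitl (-1.07), Pdlim4 (-0.22), Sparcl1 (-0.85), Tagln (-2.32), Timp4 (-0.53), Tpm2 (-0.69) and Vim (-0.0345). In endothelium Ibsp turned with stricter gates (-1.23), and Rgs5 with cells weighted equally (0.0566), without doublets (0.061) and without its 10 richest cells (1.72). Of the 5 stromal lists whose median passed 1.5-fold, 1 still did with each cell weighted equally and 2 at the same makeup. Of 10 endothelial lists, 10 and 1 did. Of 69 stromal genes past 1.5-fold among those chosen by the rule, 58 still were with each cell weighted equally. The cause was not tested.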
